A study of Rattus norvegicus with 4 samples.

Results

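The genes described here carry calcium across the intestinal epithelium or respond to vitamin D. They are Trpv5, Trpv6, S100g, Atp2b1, Vdr and Casr, chosen by name from the gene annotation of the arrays, with Calb3 also searched as the older name of S100g. The 7 names found 6 genes on 7 probes, out of 41012 gene probes. Calb3 itself is not a gene name on the array, and Atp2b1 has 2 probes. Compost rats were given 1.0% (v/v) compost extract in their tap water for 12 weeks, starting at an age of 3 weeks, and control rats were given plain tap water. All were male Wistar rats, an outbred stock, and each group had 2 rats with 1 one-colour array each. The RNA came from small intestine without Peyer's patches, and the labels do not say which stretch was taken.

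Calcium crosses the enterocyte, the absorptive cell of the gut lining, in a series of steps. It enters through apical channels, is carried through the cytosol bound to a buffering protein, and is pumped out on the blood side. The hormonal form of vitamin D, calcitriol, binds the vitamin D receptor in the nucleus of these cells and raises the genes of all these steps. In rats this active route is best known from the duodenum, while calcium also passes between cells along the whole small intestine.

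The carrier protein gene S100g was lower in both compost rats than in both control rats, to 0.459 of the control level on average, but the difference did not pass the test over all probes. The other measured genes, Atp2b1, Vdr and Casr, differed by 0.31 log2 units or less. The channel gene Trpv5 was not well above background on any array. Trpv6 was well above background in 1 control rat and in no compost rat. Of the 5 probes that were bright enough to test, 0 were called by limma (adjusted p under 0.05), against 0% of all 28415 probes tested. At an unadjusted p under 0.05 there was 1 of the 5, against 3.21% of all probes.

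Levels are given as log2 of the processed spot intensity minus the array's 75th percentile over gene probes, so that a value of 0 lies at that percentile. The 75th percentile was at intensities of 987 and 729 on the compost arrays and 769 and 760 on the control arrays. Of the gene spots on an array, 66.5% to 71.0% passed as well above background. Arrays correlated across probes with a Pearson's r of 0.981 within the compost pair, 0.986 within the control pair and 0.981 to 0.988 between the groups. The compost arrays held positions 3 and 4 of the slide and the control arrays positions 1 and 2, so position and group cannot be told apart. Of the markers listed for the tissue, 6 of 6 pan-epithelial genes and 8 of 10 enterocyte genes on the array were well above background on all 4 arrays. The markers of exocrine pancreas, a neighbouring tissue, reached that on all 4 arrays for 1 gene of 6, and 3 of the 6 were above background nowhere. Of the 3 tested, Prss1 was higher in compost by 2.08 ± 0.59 SE (unadjusted p = 0.0183 by limma) but was not called. It was well above background in both compost rats and 1 control rat. Cela1 differed by -0.16 on its brighter probe and 0.4 on the other, and Amy2a3 by -0.82.

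**Figure D1:**
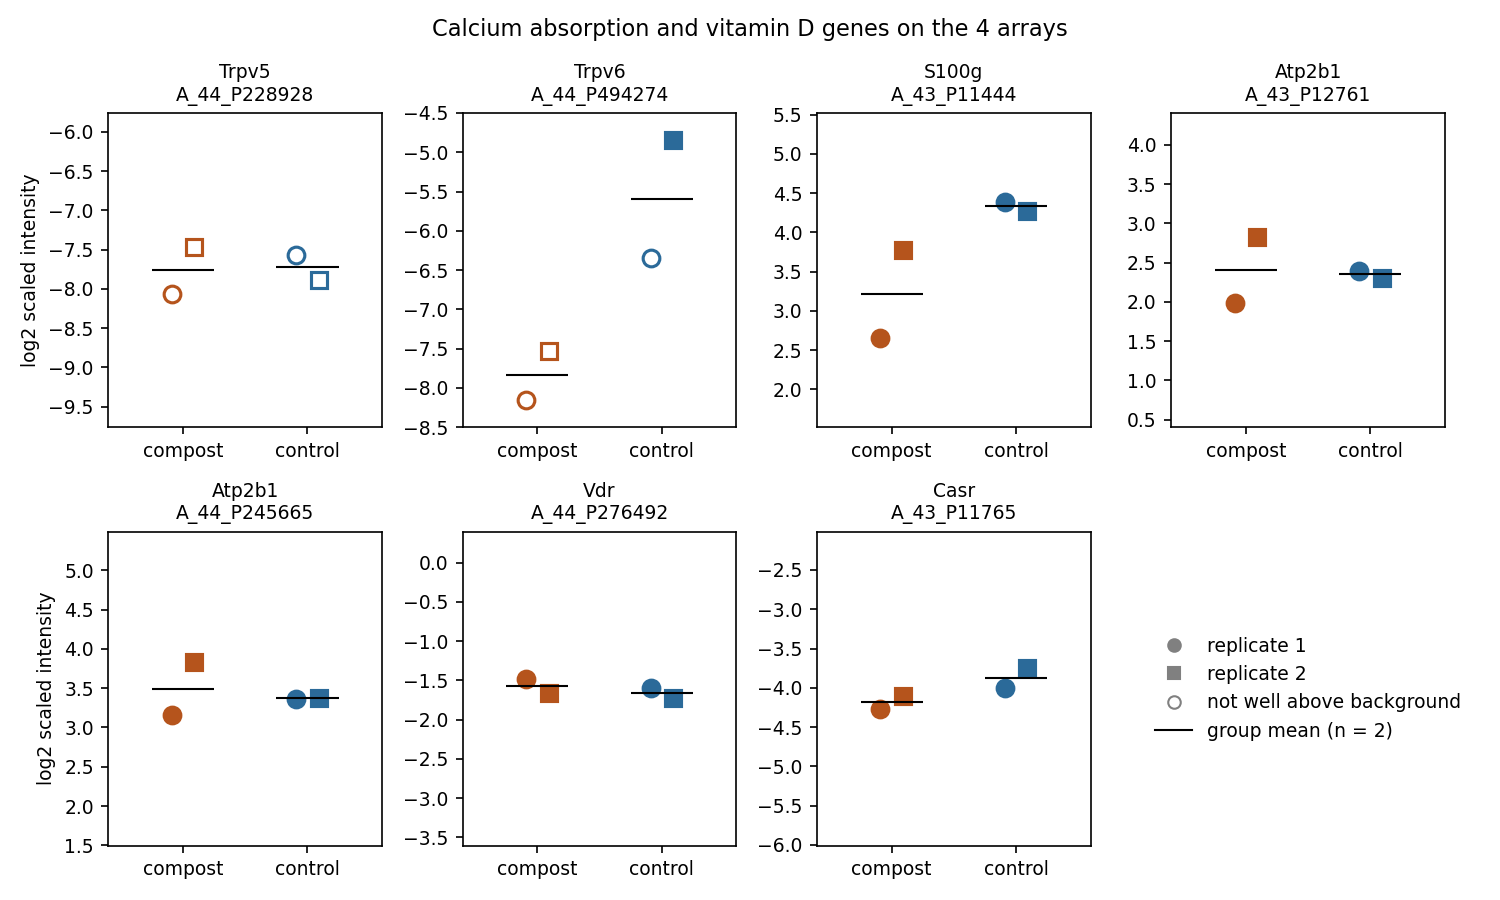
Level of each probe of Trpv5, Trpv6, S100g, Atp2b1, Vdr and Casr (log2 processed intensity minus the array's 75th percentile) in the 2 compost rats, left, and the 2 control rats, right, with a bar at each group's mean. Every panel spans 4 log2 units. The compost rats lie below the control rats for Trpv6, S100g and Casr, and open symbols mark spots not well above background, which include all of Trpv5 and 3 of the 4 spots of Trpv6.

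Trpv6, the main calcium entry channel of the rodent duodenum, was measured by 1 probe. Its processed intensity was 3.47 and 3.94 in the compost rats, against 9.42 and 26.3 in the control rats. Only the spot of control replicate 2 was well above background. On the log2 scale these were -8.15 and -7.53 in compost and -6.35 and -4.85 in control, so the groups did not overlap, and the control rats lay far apart from each other.

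The uncorrected spots of Trpv6 were much closer than these levels. Mean signals before background subtraction were 120 and 122 in compost and 120 and 140 in control. The negative control spots of the same arrays had median mean signals of 110 and 111 in compost and 107 and 108 in control. Their 95th percentiles were 120 and 123 in compost and 120 and 119 in control, and only the Trpv6 spot of control replicate 2 lay clearly above. With normexp, another background correction, the Trpv6 levels were -3.83 and -3.41 in compost and -3.40 and -3.10 in control. That difference was -0.37. No fold is given for Trpv6, because the bound set by the dimmest probes well above background on the compost arrays came out under 1. The gene did not enter the test, which needed 2 arrays well above background. Without that requirement its difference was -2.24 ± 0.58 SE (adjusted p = 1 by limma).

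A second probe bears on Trpv6 but lies outside the name rule and was picked out after its annotation was read. It was designed to a transcript cluster, TC621994, that the file describes as a partial match to the rat Trpv6 protein. It was well above background on all 4 arrays, with intensities of 66.9 and 55.2 in compost and 37.2 and 80.8 in control. Both compost rats lay between the 2 control rats, and the difference was 0 ± 0.41 SE (adjusted p = 1 by limma). The 2 probes thus did not show the same pattern. Which of them measures the Trpv6 transcript was not tested.

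Trpv5, the close relative that takes up calcium mainly in the kidney, had intensities of 3.71 and 4.15 in compost and 4.04 and 3.22 in control. None of the 4 spots was well above background, so there is no level to compare. Its mean signals of 116 and 116 in compost and 112 and 114 in control lay below the 95th percentile of the negative control spots, which was 120 and 123 on the compost arrays and 120 and 119 on the control arrays. Trpv5 and Trpv6 lie next to each other on 1 chromosome of the GRCr8 assembly, with 0 protein-coding genes between them.

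S100g encodes calbindin-D9k, the small cytosolic protein that binds calcium and ferries it through the enterocyte. It was bright on every array, with intensities of 6200 and 9910 in compost and 16100 and 14700 in control. On the log2 scale it stood at 2.65 and 3.77 in compost, against 4.39 and 4.27 in control. The groups did not overlap: the compost rats were the lower pair, and they were 1.12 apart from each other while the control rats were 0.12 apart.

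The mean level of S100g was 3.21 ± 0.79 in compost and 4.33 ± 0.08 in control (SD, n = 2 each). The difference was -1.12 ± 0.41 SE, with a 95% interval from -2.19 to -0.05. As a ratio this is 0.459 of control, with an interval from 0.219 to 0.964 (unadjusted p = 0.0431, adjusted p = 1 by limma). An exact permutation test of 2 rats against 2 cannot go below p = 0.333, two-sided. Size depended on 1 rat: the difference was -0.56 without compost replicate 1 and -1.68 without compost replicate 2. It was negative under all 14 alternatives tried, but those that changed only the filter, variance model or block could not move it. Scaled on the median of the 10 enterocyte markers on the array, the S100g difference was -0.61 ± 0.37 SE (adjusted p = 0.31 by limma). This setting was chosen after seeing the data. It moved the differences of all probes alike, their median to 0.489, so it could not change where S100g lay among them.

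The groups were apart, with compost lower, in 2 of the 5 tested probes, S100g and Casr, against 15.5% of all probes. They were apart with compost higher in 0 of the 5, against 12.4% of all probes.

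Other epithelial genes are given beside S100g because its transcript is made by enterocytes. In whole tissue, fewer cells of a type and less RNA per cell cannot be told apart. Of the 10 enterocyte markers on the array, 8 were measured in both groups. All 8 had a negative difference (median -0.41, range -1.60 to -0.25), and in 4 of the 8 the compost rats were the lowest pair, against 15.5% of all probes. These values take 1 probe a gene. Anpep, at -0.75, had a second tested probe at only -0.07, and Fabp1, at -0.27, had one at -0.2. The summed level of all 10 markers on the log2 scale was 10.3 and 10.7 in compost and 11.1 and 10.8 in control. The 2 markers outside the 8 were Lct, which encodes lactase, and Alpi, an alkaline phosphatase. Both gave no spot well above background in compost and entered the test through the control rats alone, so they are not counted among the 8. Against the mean of the control rats, they were at least 4.01-fold (Lct) and at least 5.34-fold (Alpi) lower in compost (adjusted p = 1 for each by limma). These bounds were set by the dimmest probes well above background on the compost arrays. Control levels were -2.99 and -4.2 for Lct and -1.87 and -4.5 for Alpi, so control replicate 2 alone would give lower bounds. The scaling on enterocyte markers did use all 10, Lct and Alpi included. Scaling on the 8 alone was not tried.

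The 6 pan-epithelial markers differed by less, from -0.13 to 0.14 with a median of -0.02. Their summed level was 10.2 and 10.5 in compost and 10.3 and 10.3 in control. Scaled on the median of these 6 genes, a setting chosen after seeing the data, the S100g difference was -1.14 ± 0.38 SE (adjusted p = 1 by limma). The 7 measured markers of proximal small intestine had a median difference of 0.08 and a summed level of 6.44 and 6.80 in compost against 6.14 and 6.26 in control. For the 7 distal markers the median was 0.17, and the summed level was 9.91 and 10.3 in compost and 10.2 and 10.2 in control. Brightest of the distal markers was Fabp6, at 9.46 and 9.93 in compost and 9.87 and 9.86 in control. Brightest of the proximal markers was Sct, at 6.30 and 6.67 in compost and 5.85 and 6.13 in control. Pdx1, also proximal, was well above background on 1 array of each group. Which stretch the RNA came from was not tested.

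Immune markers had positive differences. In all 3 B cell markers measured in both groups the compost rats were the highest pair (median 1.45), against 12.4% of all probes. The remaining one, Ms4a1, was well above background only in compost, which let it into the test, and is not counted. The summed level of these 4 was -0.938 and 0.635 in compost and -2.35 and -2.11 in control. The compost rats were the highest pair in 3 of the 6 macrophage markers, which had a median of 0.62 and a summed level of 6.23 and 5.54 in compost against 5.49 and 5.05 in control. Smooth muscle markers had a median of 0.16 over 4 genes and enteric neuron markers -0.12 over 5. The part of any of these in the S100g difference was not tested.

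The profile of S100g, the tested gene here with the widest range over the arrays, was compared with 11392 other named genes. Likeness was the root mean square distance between log2 profiles centred on their means over only 4 arrays, and 5 genes lay within 0.2. Nearest was Slc2a5, the fructose transporter of the brush border, at a distance of 0.116. Its levels were 2.50 and 3.62 in compost and 3.96 and 4.00 in control. Next came Mme, a brush border peptidase, at 0.132, with 2.14 and 2.91 in compost against 3.60 and 3.48 in control. Cyp2d3, a cytochrome P450 that the file lists as Cyp2d13, followed at 0.152 but gave no spot well above background in compost. All 3 were lowest in compost replicate 1, as S100g was, which follows from choosing them by their likeness to it.

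**Figure D2:**
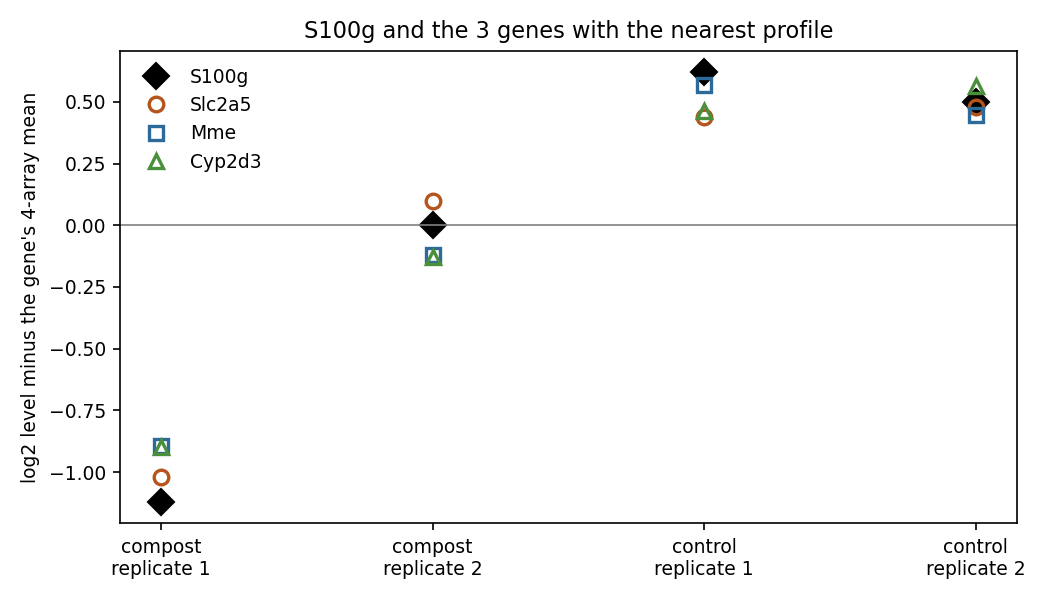
Level of S100g (diamonds) and of the 3 genes with the nearest profile, Slc2a5, Mme and Cyp2d3, in log2 units from each gene's own mean over the 4 arrays, with the compost rats left of the control rats. Compost replicate 1 is lowest for all 4 genes, and compost replicate 2 lies between it and the control rats. The 3 genes were chosen for this likeness.

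Calcium leaves the enterocyte through the plasma membrane calcium pump encoded by Atp2b1. Its first probe, A_43_P12761, stood at 1.99 and 2.82 in compost and 2.39 and 2.31 in control on the log2 scale. Its second probe, A_44_P245665, stood at 3.16 and 3.83 in compost and 3.36 and 3.38 in control. On both probes compost replicate 1 was lowest, compost replicate 2 was highest and the control rats lay between them, close together.

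The difference was 0.05 ± 0.32 SE for the first probe of Atp2b1 and 0.12 ± 0.28 SE for the second (adjusted p = 1 for each by limma). The intervals, 0.577-fold to 1.87-fold and 0.656-fold to 1.81-fold, hold differences of either sign. Without compost replicate 2 the differences were -0.36 and -0.21, and without compost replicate 1 they were 0.47 and 0.46. The direction of Atp2b1 therefore rested on which compost rat was kept.

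Vdr, the nuclear receptor for calcitriol, was the least variable of these genes. Its level was -1.48 and -1.66 in compost and -1.60 and -1.73 in control, a range of 0.26 over all 4 rats, and the groups overlapped. The difference was 0.10 ± 0.19 SE (adjusted p = 1 by limma), and the interval ran from 0.759-fold to 1.51-fold. Scaled on the enterocyte markers, which raised all probes, Vdr was at 0.61 and the Atp2b1 probes at 0.56 and 0.63.

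Casr is the receptor on the cell surface that senses extracellular calcium, best known from the parathyroid and also present in the gut. It was dim but well above background on all 4 arrays, with intensities of 51.2 and 42.5 in compost and 48.2 and 56.6 in control. Scaled, the levels were -4.27 and -4.10 in compost and -4.00 and -3.75 in control. The compost rats lay just below the control rats, and the gap of 0.10 between the groups was smaller than the spread within either. The difference was -0.31 ± 0.20 SE (adjusted p = 1 by limma), an interval from 0.561-fold to 1.15-fold. With normexp it was -0.17, and scaled on the enterocyte markers it was 0.20.

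Compost replicate 1 was the lowest of the 4 rats on 6 of the 7 probes, all but Vdr, where it was highest. With quantile scaling it was lowest on 5 of the 7, and before any scaling between arrays on 2 of the 7. Its array had the highest 75th percentile of the 4, which scaling subtracts. S100g was lowest in this rat with and without scaling.

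**Figure D3:**
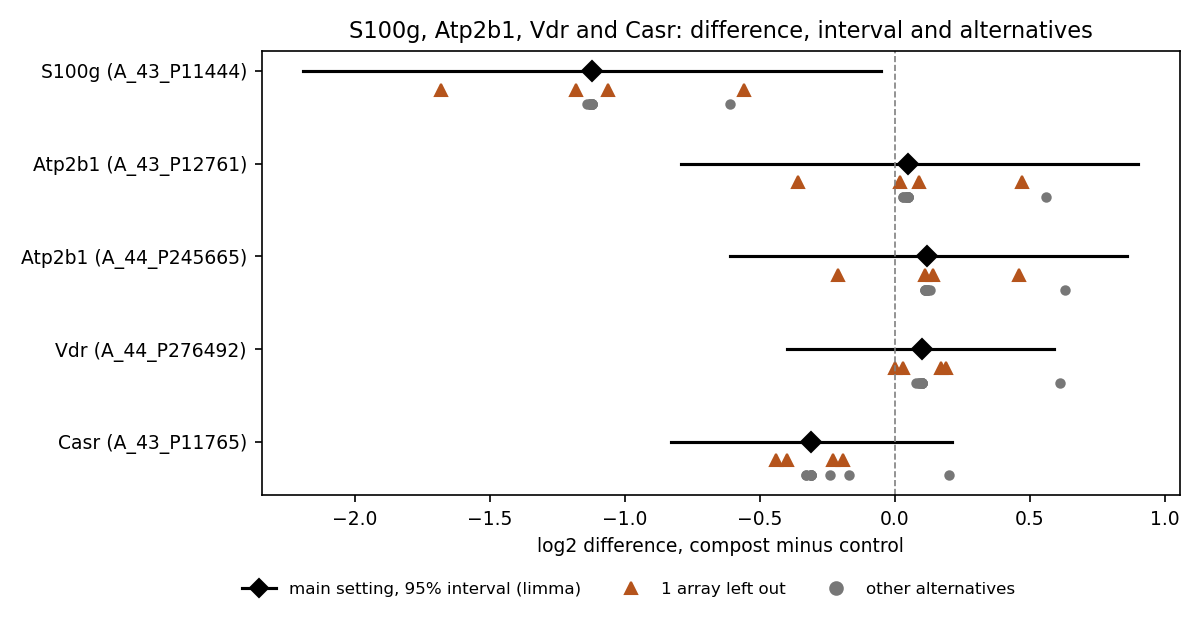
Log2 difference, compost minus control, for the 5 tested probes (diamonds) with the 95% interval of the limma model, the values with 1 array left out (triangles) and under the other alternatives (dots, of which the one farthest to the right in each row is the scaling on enterocyte markers). The S100g interval ends at -0.05 and the other 4 cross 0; leaving out 1 array moves S100g between -1.68 and -0.56 and turns the sign of both Atp2b1 probes.

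Around these genes, 63 others of calcium and vitamin D handling were listed by role. Of these 62 were on the array and 47 had a probe bright enough to test. None was called higher (0) or lower (0) by limma, where every adjusted p = 1, and at an unadjusted p under 0.05 there were 0 higher and 1 lower. Differences were positive in 18 and negative in 29, with a median of -0.05 against -0.02 over all probes. Scaled on the enterocyte markers, 11 of the 20 genes named with a difference turned sign and Rxrg came to 0, with the shift of all probes. The compost rats were the highest pair in 4 genes (8.51%, against 12.4% of all probes) and the lowest pair in 6 (12.8%, against 15.5%). As a group they thus lay near the background.

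Vitamin D metabolism was measured in 8 of 10 genes, 4 positive and 4 negative, with a median of 0. Cyp24a1, the enzyme that breaks calcitriol down and one of the most responsive targets of the receptor, was not well above background with either of its 2 probes on any array. Its intensities were 3.60 and 3.96 in compost and 3.91 and 3.11 in control on one probe, and 5.06 and 4.93 in compost and 4.95 and 3.81 in control on the other. Cyp27b1, which makes calcitriol, stood at -3.27 and -3.38 in compost and -3.30 and -3.43 in control, with a difference of 0.04 ± 0.18 SE. Its groups overlapped.

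The other named genes of this list had the smallest unadjusted p. Cyp3a9, a cytochrome P450 that the file lists as Cyp3a13 and whose probe may also bind related family members, stood at 5.60 and 5.74 in compost and 6.55 and 6.01 in control (-0.61 ± 0.25 SE). The groups did not overlap. Cubn, the cubilin receptor that takes up vitamin D bound to its carrier protein in the kidney, stood at 1.10 and 1.72 in compost and 2.83 and 1.62 in control (-0.82 ± 0.48 SE), and control replicate 1 alone stood high.

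Among 11 measured partners and cofactors of the receptor, 3 differences were positive and 8 negative, with a median of -0.05. Rxra, a retinoid X receptor that pairs with Vdr on DNA, differed by -0.07 ± 0.29 SE, with overlapping groups. The smallest unadjusted p values belonged to Rxrg, another retinoid X receptor (-0.51 ± 0.28 SE), and Ncoa2, a coactivator (-0.29 ± 0.18 SE). In both genes the compost rats lay below the control rats. Rxrg was at -0.17 without compost replicate 2 and -0.84 without compost replicate 1.

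The other apical entry genes numbered 3, with Cacna1d, a voltage-gated calcium channel, at -0.24 ± 0.30 SE and Trpm6, a magnesium channel, at 0.16 ± 0.32 SE. Of 6 genes that hold or carry the channels at the membrane, 3 were positive and 3 negative. Sgk1, a kinase of epithelial ion transport, stood at 3.58 and 4.39 in compost and 4.39 and 4.53 in control (-0.47 ± 0.32 SE), lowest in compost replicate 1. Without that rat its difference was -0.07, and without compost replicate 2 it was -0.87. Pdzd3, a scaffold protein of the brush border, differed by -0.18 ± 0.21 SE.

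Of 6 other calcium buffers, 4 were measured, and they lay within -0.10 to 0.08. Calmodulin gene Calm2 differed by 0.08 ± 0.18 SE and calretinin gene Calb2 by -0.10 ± 0.28 SE. The other pumps and the exchanger had a median of -0.21 over 5 genes. Slc8a1, the sodium-calcium exchanger, had a difference of -0.23 ± 0.27 SE and passed the background limit in compost replicate 1 but not in compost replicate 2. Its second tested probe, well above background on 1 array of each group, stood at -5.46 and -5.97 in compost and -3.43 and -5.65 in control (-1.18 ± 0.77 SE, adjusted p = 1 by limma), with control replicate 1 alone high. Atp2b2, a pump best known from neurons and hair cells, differed by -0.27 ± 0.46 SE. In the paracellular route, the cation-channel claudin genes Cldn2 and Cldn15 differed by 0.18 ± 0.35 SE and -0.39 ± 0.37 SE, and all 3 claudins had overlapping groups.

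Hormones and their receptors were mostly dim, with 5 of 13 measured and 6 well above background on no array. Pthlh, a local relative of parathyroid hormone, differed by 0.41 ± 0.27 SE. Its levels were -3.36 and -2.75 in compost and -3.37 and -3.55 in control, so the compost rats were only just the highest pair. The Pthlh difference was 0.10 without compost replicate 2 and 0.71 without compost replicate 1. With normexp it was 0.13, and the groups overlapped. Calca, the gene for calcitonin and the nerve peptide CGRP, differed by -0.50 ± 0.35 SE with overlapping groups, and by -0.89 to -0.11 with 1 array left out. Neither passed the test.

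**Figure D4:**
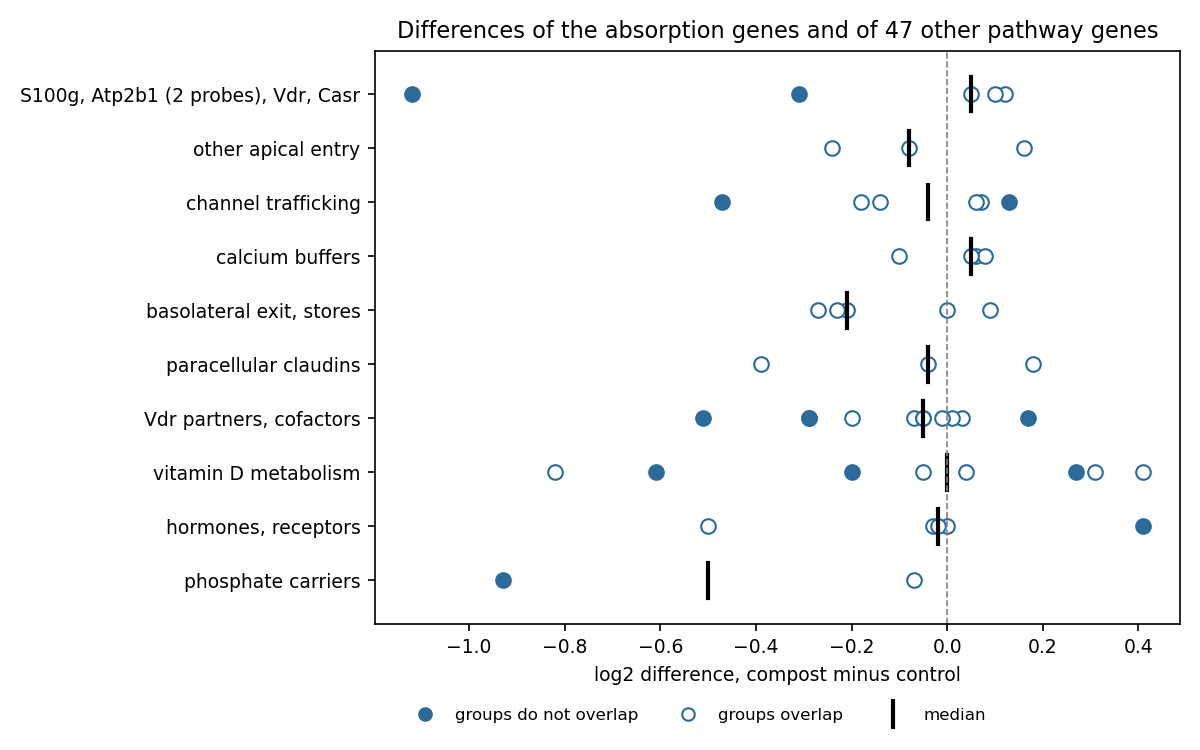
Log2 difference, compost minus control, of the 5 tested probes of S100g, Atp2b1, Vdr and Casr and of 47 other genes of calcium and vitamin D handling by role, with filled points where the 2 groups do not overlap and bars at the median. Most points lie near 0; the lowest are S100g at -1.12 and the phosphate carrier Slc20a1 at -0.93.

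Phosphate carriers, which vitamin D also regulates, were measured for 2 of 4 genes. Slc20a1, a sodium-dependent phosphate transporter, stood at 3.08 and 3.62 in compost and 4.66 and 3.91 in control. The groups were apart, with control replicate 1 highest. The difference was -0.93 ± 0.35 SE (unadjusted p = 0.0465, adjusted p = 1 by limma), and a second probe gave -0.82. Slc20a2, its relative, differed by -0.07 ± 0.47 SE. Slc34a1 and Slc34a2, picked out after their values were seen, were well above background on no array with any probe.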

How the data were processed

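Cy3-labelled RNA of each rat was hybridised to 1 Agilent array. The deposited files give a linear intensity per spot that Feature Extraction 9.1.3.1 had detrended and corrected for background, per the file headers, with flags (other than intensities) for spots well above background and outliers. The deposited value table holds the same intensity, rounded: the largest difference was 0.497%, and its column medians were 102 and 73.9 for compost and 80.2 and 79.4 for control, so its scale is linear, without centring. Outlier spots were left out. The log2 intensity was averaged per probe and the array's 75th percentile subtracted. The 28415 probes with most spots well above background on at least 2 of 4 arrays entered limma 3.58.1 (R 4.3.3; two-sided, Benjamini-Hochberg over all probes kept, threshold 0.05). The standard error and the 95% interval are the model's. The labels number the arrays as replicates, with 1 array a rat, and the number of rats limits the precision. For the pathway lists, the tested probe with the highest mean stood for a gene. Names were updated through a GRCr8 table, by accession for 10819 probes, symbol for 5199 and synonym for 3485, while 21478 kept the file's name. No genome was used, so positions are not given. The genes and lists were chosen with earlier results of these data known. Every probe of the 6 genes is named, and of each list the 2 genes with the smallest unadjusted p plus Cyp24a1, Cyp27b1, Slc8a1, Cldn2 and Rxra. The fit was tested on simulated data. Alternatives changed background correction, scaling, filter, value source, variance model, replicate block and arrays.
Of these alternatives, scaling on the epithelial markers and on the enterocyte markers were added after seeing the data.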

Additional observations from a re-analysis of the deposited data

How the results depend on the processing

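Precision was limited by 2 rats a group, and dim spots limited Trpv5 and Trpv6. Over all probes 0 were called, with 1 called under normexp and 0 to 2 with 1 array left out, 2 without control replicate 2. Scaling on the enterocyte markers, chosen after seeing the data, moved the median of all probes to 0.489 and called 182, 166 higher and 16 lower. No setting called any probe of the 6 genes or any of the 47 pathway genes. The S100g difference of -1.12 lay between -1.68 and -0.56 with 1 array left out and between -1.14 and -1.12 in the other 9 alternatives, apart from -0.61 under enterocyte scaling, and its adjusted p ranged from 0.31 to 1. Changes of filter, variance model or block cannot move the S100g difference, and the deposited value table holds the same intensities, rounded. With 1 array left out, Atp2b1 ranged from -0.36 to 0.47 on one probe and -0.21 to 0.46 on the other, Vdr from 0 to 0.19 and Casr from -0.44 to -0.19. The cause was not tested. Vdr was at 0 without compost replicate 1, and Casr turned to 0.20 under enterocyte scaling. Of the 20 pathway genes named with a difference, 11 turned direction when 1 array was left out: Slc20a2 (-0.66 to 0.52), Cldn15 (-0.86 to 0.07), Cldn2 (-0.21 to 0.56), Slc8a1 (-0.47 to 0.01), Atp2b2 (-0.82 to 0.28), Cacna1d (-0.55 to 0.07), Trpm6 (-0.18 to 0.51), Calm2 (-0.01 to 0.16), Calb2 (-0.36 to 0.17), Cyp27b1 (-0.02 to 0.11) and Rxra (-0.37 to 0.23). Cyp27b1 was also at -0.02 under normexp. The upward shift of enterocyte scaling turned 11 of the 20 and brought Rxrg to 0: Slc20a2 (0.44), Ncoa2 (0.22), Calca (0.01), Sgk1 (0.04), Pdzd3 (0.32), Cldn15 (0.12), Slc8a1 (0.28), Atp2b2 (0.24), Cacna1d (0.27), Calb2 (0.41) and Rxra (0.44). Without 1 array, Slc20a1 ranged from -1.31 to -0.56, Cyp3a9 from -0.88 to -0.34, Cubn from -1.42 to -0.21, Pdzd3 from -0.37 to 0 and Ncoa2 from -0.34 to -0.23. With the replicate number as a block, S100g differed by -1.12 (adjusted p = 1 by limma) and 0 probes were called. Same-numbered deviations correlated at -0.036 across probes, so no shift shared by same-numbered rats was seen. With 2 rats a group this cannot exclude a pairing.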
